A study of Mus musculus with 192 samples.

Results

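The cholesterol genes followed here were 31 genes of sterol synthesis, uptake, storage and efflux, chosen by their symbols from the 54752 genes of the table. They comprised 3 regulators, 18 synthesis enzymes, 4 genes of uptake and transport, 2 esterifying enzymes and 4 efflux transporters. Their RNA was measured by RNA-seq in 9 tissues of mice that had lived for about a month on the International Space Station (flight, FL) or in the same cages on the ground (ground control, GC). Liver (Liv), kidney (Kid) and cerebrum (Cbr) were sampled together with white fat of the epididymis (eWAT), brown fat from between the shoulder blades (iBAT), the lymphoid organs thymus (Thy) and spleen (Spl), and bone of the jaw (MdB) and the temple (TpB). All mice were C57BL/6 males labelled as 12 weeks old, housed singly, and were either wild type (WT) or homozygous knockouts of Nrf2 (Nrf2-KO), the transcription factor encoded by Nfe2l2 that drives antioxidant genes. The methods give 12 weeks as the age of flight mice before launch, and these mice were dissected about a month later. The KO mice had been screened so that those with an intrahepatic shunt, a vessel defect of this line, were not taken. The 4 groups were GC_WT, FL_WT, GC_KO and FL_KO, with 6 mice each in 7 tissues and 3 each in MdB and Kid. Flight mouse 04, a KO mouse that bled from the gut on the return, was left out, which left 5 FL_KO mice, or 2 in MdB, and 184 of the 192 samples. Flight mice were dissected in the United States after landing and ground mice in Japan later that year, so flight and the place and date of dissection cannot be told apart. By the methods, flight mice were changed to flight food before launch, whereas ground mice are described as fed CRF-1. Any difference of food, the return to Earth and the transport after it cannot be told apart from flight either. The same mouse number in FL and GC stands for separate animals.

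Cells make cholesterol from acetyl-CoA through mevalonate, farnesyl diphosphate and squalene, and a chain of sterol intermediates follows. When membrane cholesterol is low, the transcription factor SREBP2 is released from the endoplasmic reticulum and switches on nearly the whole chain, together with uptake genes, and Insig1 holds it back when sterols are plentiful. When sterols are abundant, oxysterols activate the LXR receptors, among them LXRα (Nr1h3), which raise efflux transporters such as Abca1 and Abcg1. The liver is the main site of cholesterol export to blood and bile, whereas brown fat is known for lipid synthesis and heat production.

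The total count per sample ranged from 8.0 to 16.3 megacounts with a median of 14.5 megacounts, and the thymus was shallowest (8.0 to 10.6 megacounts). The lowest WT level of Nfe2l2 lay above the highest KO level in each of the 9 tissues, for example 89.3 against 37.5 TPM (transcript abundance corrected for length and scaled to 1 fixed total per sample) in MdB and 73.1 against 67.8 TPM in Spl. Marker genes were highest in the labelled tissue for Liv, Kid, Thy, Spl, Cbr, iBAT, eWAT and MdB, while TpB had osteoblast markers of 451 to 1670 TPM in sum against at least 31540 TPM in MdB, and also held neuron markers up to 2774 TPM. In iBAT, flight mice FL06, FL08 (WT) and FL11 (KO) carried 2910 to 7480 TPM of skeletal muscle markers, against at most 62.5 TPM in the other mice. These are bulk samples, so fewer cells of a type and less RNA per cell cannot be told apart.

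In GC_WT mice the members were expressed at different levels in different tissues, given here as TPM, which is per transcript length (mean ± SD). Mean TPM was highest in Liv for 11 members, in Kid for 5, in eWAT and Cbr for 4 each, in Spl and iBAT for 3 each and in MdB for 1. When the median replaced the mean, 2 members had another highest tissue, and in GC_KO mice 8 had. Neighbouring tissues in the order often overlapped, so the highest tissue is a description. Thy libraries were made from RNA depleted of ribosomal RNA and the others from poly(A) RNA. The rank of Thy therefore cannot be told apart from the type of library.

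Among the regulators, Srebf2, which encodes SREBP2, was highest in Spl at 102 ± 2.96 TPM (n = 6) and next in Cbr at 95.5 ± 6.98 TPM, whose mice overlapped with Spl, and lowest in iBAT at 9.55 TPM. Insig1 was highest in iBAT at 179 ± 31.4 TPM and next in Liv at 115 ± 44.6 TPM, again with overlap, and lowest in Thy at 14.5 TPM. Nr1h3 stood at 133 ± 9.60 TPM in eWAT, where no mouse overlapped with Spl, the next tissue, and at 3.20 TPM in Cbr. Early synthesis was led by Hmgcs1, the cytosolic HMG-CoA synthase, with 210 ± 22.9 TPM in Kid (n = 3) and 20.2 TPM in Thy. The kidney was also the highest tissue for Mvd (diphosphomevalonate decarboxylase, 48.1 ± 3.23 TPM), Idi1 (isopentenyl diphosphate isomerase, 44.8 TPM), Cyp51 (lanosterol demethylase, 58.0 ± 1.97 TPM) and Nsdhl (a sterol dehydrogenase, 29.5 TPM). Thy, with its other type of library, held the lowest mean of most synthesis genes.

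Late synthesis peaked in the liver for Sc5d, a sterol desaturase, at 208 ± 56.2 TPM, and for Ebp, a sterol isomerase, at 127 ± 14.4 TPM, both with no overlap with the next tissue. Cbr was highest for Msmo1 (methylsterol monooxygenase, 59.6 ± 1.92 TPM), Fdft1 (squalene synthase, 56.5 ± 1.41 TPM) and Lss (lanosterol synthase, 9.77 TPM), the last overlapping with Liv at 9.33 TPM. Acat2 (cytosolic acetoacetyl-CoA thiolase, 109 TPM) and Pmvk (phosphomevalonate kinase, 78.9 ± 7.32 TPM) were highest in iBAT, and Mvk (mevalonate kinase, 26.0 ± 3.67 TPM) in eWAT. The remaining synthesis genes had overlapping tissues at the top: Fdps (farnesyl diphosphate synthase), Tm7sf2 (a sterol reductase), Hsd17b7 (a sterol ketone reductase) and Dhcr7 (the reductase that yields cholesterol) in Liv, and Sqle (squalene epoxidase) in MdB.

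Among the efflux and storage genes, Abcg5, Abcg8 and Soat2 were close to bound to the liver. Abcg5 and Abcg8, the paired transporter that secretes sterols into bile, reached 31.7 ± 9.59 and 27.4 ± 8.27 TPM in Liv and were under 1 TPM in 7 tissues, and Soat2, which esterifies cholesterol in liver and gut, reached 12.3 ± 1.77 TPM in Liv and was under 1 TPM in 7 tissues. Soat1, the widely expressed esterifying enzyme, stood at 44.2 ± 1.90 TPM in Spl and 43.8 ± 4.58 TPM in Thy and was under 1 TPM in 2 tissues. Abcg1, an exporter to high-density lipoprotein, ranged from 84.9 ± 10.2 TPM in Spl to 1.97 ± 0.404 TPM in Liv. Abca1, the exporter that loads lipid-poor apolipoprotein, was highest in eWAT at 41.3 ± 4.38 TPM with overlap with Spl. Of the uptake genes, Scarb1, the receptor for high-density lipoprotein, was highest in eWAT (142 ± 8.42 TPM), Npc1, which moves cholesterol out of lysosomes, in Liv (37.3 TPM, overlapping with Cbr), and Stard4, a sterol carrier between membranes, in Liv (23.2 ± 5.18 TPM). Npc1l1, the intestinal uptake transporter, stayed under 1 TPM in all 9 tissues, with a mean of 0.782 TPM at most.

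Upstream sequence is shown because the synthesis genes moved together in several tissues, and their promoters are known to bind SREBP2 with the factors NF-Y (CCAAT box) and Sp1 (GC box). The RefSeq promoter table (GRCm38.p6, 250 bases before to 50 after the start) held 23 of the 31 members. The sterol regulatory element core, searched on both strands as TCACNCCAC, was found in 1.05% of the 32851 promoters of the table. Counted by gene, with any of its promoters, it was found in 1.22% of the 27025 genes and in 1 of the 23 members, Hmgcs1. CCAAT was found in 37.5% of genes (33.8% of promoters) and in 19 of the 23 members, and GGGCGG in 35.4% of genes (32.7% of promoters) and in 17 of the 23. These motif letters do not overlap with each other in the 5 windows below, and a match or its absence describes the letters of the window only. Hmgcs1 is shown as the member with the core, which lies 137 to 129 bases before the start, and Pmvk, Mvd, Sc5d and Abca1 were chosen after their values had been seen, Abca1 as an efflux gene without CCAAT. Each is the 250 bases before the RefSeq start, 5′ to 3′ on the gene's strand, with the motif letters in capitals.
Hmgcs1, chr13:119690101-119690350, plus strand: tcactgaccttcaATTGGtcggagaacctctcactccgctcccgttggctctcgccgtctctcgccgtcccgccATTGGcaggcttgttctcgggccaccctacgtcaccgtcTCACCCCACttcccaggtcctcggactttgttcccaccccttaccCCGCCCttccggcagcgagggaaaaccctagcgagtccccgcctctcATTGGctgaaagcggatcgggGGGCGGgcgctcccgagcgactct
Pmvk, chr3:89454291-89454540, plus strand: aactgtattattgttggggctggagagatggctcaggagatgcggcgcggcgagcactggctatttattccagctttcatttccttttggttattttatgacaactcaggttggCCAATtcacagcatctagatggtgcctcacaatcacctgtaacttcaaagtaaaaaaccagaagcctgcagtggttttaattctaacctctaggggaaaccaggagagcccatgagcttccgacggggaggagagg
Mvd, chr8:122443423-122443672, minus strand: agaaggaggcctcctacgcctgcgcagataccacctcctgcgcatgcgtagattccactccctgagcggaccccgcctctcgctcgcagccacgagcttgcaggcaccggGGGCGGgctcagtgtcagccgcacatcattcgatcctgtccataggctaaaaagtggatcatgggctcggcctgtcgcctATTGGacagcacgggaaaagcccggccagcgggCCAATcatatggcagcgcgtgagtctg
Sc5d, chr9:42264301-42264550, minus strand: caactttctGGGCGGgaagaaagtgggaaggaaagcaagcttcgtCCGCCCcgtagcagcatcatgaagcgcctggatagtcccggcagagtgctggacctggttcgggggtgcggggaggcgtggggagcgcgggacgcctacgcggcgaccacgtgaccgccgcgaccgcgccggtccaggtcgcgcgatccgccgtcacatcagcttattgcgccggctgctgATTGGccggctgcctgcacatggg
Abca1, chr4:53159896-53160145, minus strand: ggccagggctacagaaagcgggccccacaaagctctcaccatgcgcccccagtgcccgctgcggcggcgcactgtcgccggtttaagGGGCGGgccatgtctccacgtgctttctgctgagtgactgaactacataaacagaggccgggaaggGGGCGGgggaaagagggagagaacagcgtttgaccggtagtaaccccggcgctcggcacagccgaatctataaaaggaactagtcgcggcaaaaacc

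Whether flight moved these genes was asked in each genotype and tissue. Synthesis genes were lower in flight than on the ground in iBAT and Thy of both genotypes and in Liv of KO mice, Abcg1 was higher in eWAT of both genotypes and in iBAT of KO mice, Abca1 was higher in Thy and lower in Liv of both genotypes, and little passed the test in bone, Spl, Kid and Cbr. A member was called where the adjusted p of edgeR's quasi-likelihood test was under 0.05 over all genes of the tissue. In WT mice 5 pairs of member and tissue were higher and 33 lower in flight, of 253 pairs tested, and in KO mice 5 were higher and 56 lower. In WT iBAT 17 of 27 members were called (19.2% of all genes), 16 lower (10.3%) and 1 higher (8.83%). In WT Thy it was 15 of 28 (22.8% of all genes), with 13 lower (11%) and 2 higher (11.8%). WT eWAT had 5 of 27 (13.4%), with 3 lower (6.78%) and 2 higher (6.65%), and WT Liv had 1 of 30 (3.45%), which was lower (1.91%). In KO mice 19 of 27 members were called in iBAT (33.5% of all genes), 17 lower (16.6%) and 2 higher (17%). In KO Thy it was 18 of 28 (38.2%), with 16 lower (18.9%) and 2 higher (19.3%). KO livers had 16 of 30 (3.34%), all lower (2.02%), KO eWAT had 6 of 27 (7.71%), with 5 lower (3.98%) and 1 higher (3.73%), and KO Kid had 2 of 27 (0.159%), both lower (0.0926%). In iBAT and Thy many other genes were called too.

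**Figure D1:**
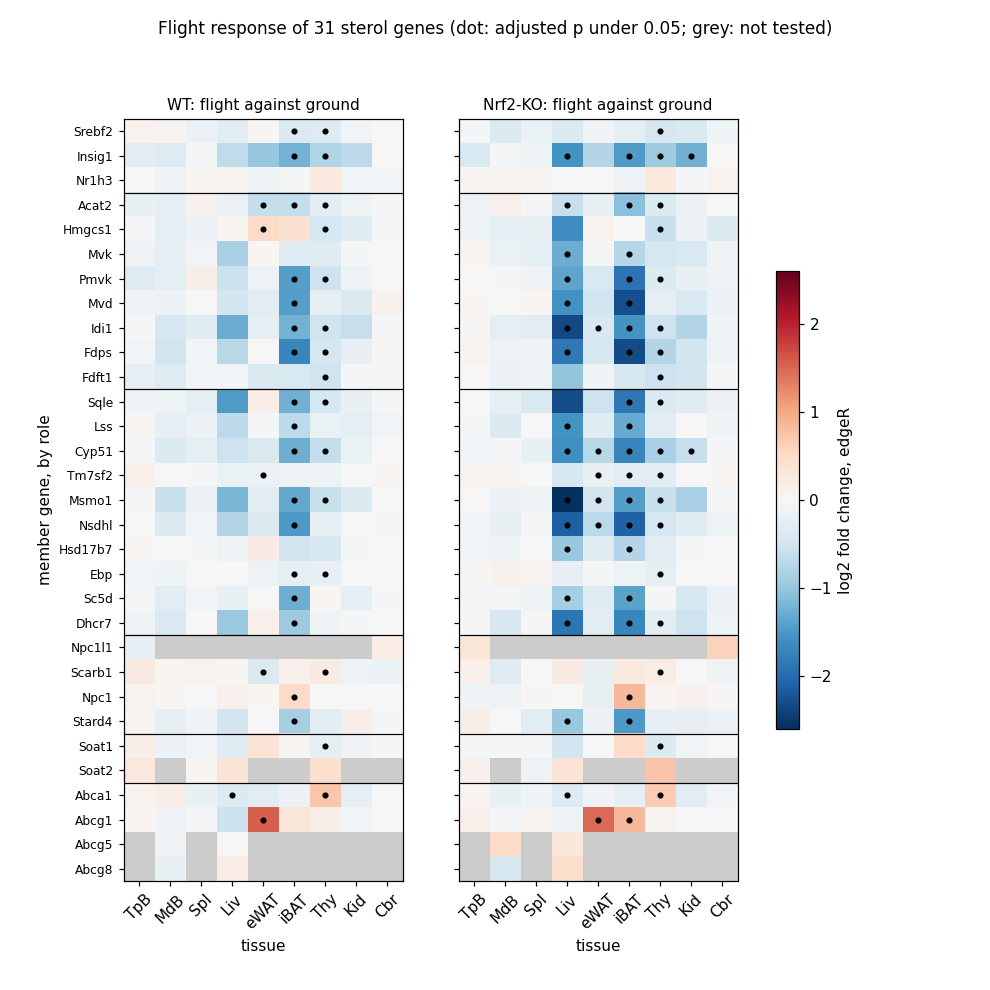
Flight response of the 31 members (rows, by role) in 9 tissues (columns) in WT and Nrf2-KO mice, as log2 fold change of flight against ground from edgeR, with dots for adjusted p under 0.05 and grey for members not tested. The blue cells gather in iBAT and Thy of both genotypes and in Liv of KO mice, and the red cells with dots are Abcg1 in eWAT, Abca1 in Thy and Abcg1 and Npc1 in iBAT, with Hmgcs1 in eWAT and Scarb1 in Thy paler.

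In brown fat most synthesis genes were lower in flight in both genotypes. Of the 18 synthesis genes, 13 were lower in FL_WT and 15 in FL_KO, with median log2 fold changes of -1.08 and -1.41. Over all members tested the median was -0.63 in WT and -1.09 in KO, against 0.02 and 0.04 over all genes. The mean log2(normalised CPM + 1), where CPM are counts scaled to the library size by TMM, of the 18 synthesis genes ranged from 4.90 to 5.33 in GC_WT and from 4.19 to 4.54 in FL_WT, and from 5.24 to 5.90 in GC_KO and from 4.06 to 4.59 in FL_KO. No flight mouse reached a ground mouse of its genotype.

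Pmvk (chr3:89454541-89469013, plus strand, GRCm38) had the smallest adjusted p in both genotypes. Its lowest, median and highest normalised CPM were 58.4, 74.9 and 82.6 in GC_WT and 23.4, 25.4 and 34.2 in FL_WT, and 84.5, 95.8 and 130 in GC_KO, while the 5 FL_KO mice stood at 24.0, 24.5, 24.7, 25.5 and 34.3 CPM. Every flight mouse was below every ground mouse, and the flight groups of both genotypes covered nearly the same range. The log2 fold change of Pmvk was -1.43 in WT (SE 0.122, edgeR adjusted p = 9.84e-08) and -1.92 in KO (SE 0.132, adjusted p = 1.09e-09).

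Fdps, whose product feeds both sterols and prenyl groups, ran from 29.7 to 55.1 CPM in GC_WT (median 42.4) and from 10.6 to 16.6 CPM in FL_WT (median 12.1). In KO mice it ran from 50.6 to 80.8 CPM on the ground, and the FL_KO mice stood at 9.68, 10.5, 12.7, 14.6 and 17.8 CPM, again with no overlap. It fell by 1.69 on the log2 scale in WT (SE 0.163, adjusted p = 3.69e-07) and by 2.32 in KO (SE 0.177, adjusted p = 3.6e-09, edgeR). Nsdhl fell by 2.11 in KO mice (SE 0.179, adjusted p = 1.59e-08) and Insig1, the feedback regulator, by 1.22 in WT mice (SE 0.132, adjusted p = 1.67e-06).

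Called lower in both genotypes were 14 members, which are 87.5% of the WT and 82.4% of the KO lower calls: Insig1, Acat2, Pmvk, Mvd, Idi1, Fdps, Sqle, Lss, Cyp51, Msmo1, Nsdhl, Sc5d, Dhcr7 and Stard4. The matching share over all genes is not given here, so this overlap is a description. The WT list held Ebp and Srebf2 besides, and the KO list Mvk, Hsd17b7 and Tm7sf2. Hmgcs1 and Fdft1 passed in neither genotype, and Hmgcs1 had log2 fold changes of 0.39 (adjusted p = 0.203) and 0.02 (adjusted p = 0.953, edgeR), with 146 to 261 CPM in GC_WT and 198 to 322 CPM in FL_WT.

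Of the genes that move or export cholesterol, Npc1 was called higher in both genotypes, by 0.50 in WT (SE 0.172, edgeR adjusted p = 0.0427) and 0.84 in KO (SE 0.179, adjusted p = 0.00110). Its CPM overlapped between GC_WT (40.9 to 66.0) and FL_WT (60.7 to 90.7), and the WT call was lost when FL03, FL05, FL06, FL10 or any of 5 ground WT mice was left out. In KO mice it ran from 41.6 to 55.2 CPM on the ground and was 59.1, 62.3, 63.5, 105 and 133 CPM in flight, with FL02 and FL01 far above the others. Abcg1 rose by 0.84 in KO mice (SE 0.127, adjusted p = 3.4e-05), from 6.84 to 8.20 CPM on the ground to 11, 11, 13.8, 16.0 and 16.8 CPM in flight without overlap.

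Without the muscle-rich mice FL06, FL08 and FL11, 13 members were lower in WT (Dhcr7, Srebf2 and Stard4 lost the call) and 16 in KO (Tm7sf2 lost it), while 1 and 2 remained higher. Those fits held only mice with at most 62.5 TPM of muscle markers. Other markers moved beside it: 4 of 5 macrophage markers were higher in FL_KO (17.4 to 32.1 TPM in sum in GC_KO, 40.0 to 83.4 TPM in FL_KO), and 1 of 3 brown adipocyte markers in WT and 2 of 3 in KO were lower, and their part in the result was not tested. On TPM without scaling, all genes shifted by a median of 0.31 in WT and 0.43 in KO, and limma then called 5 members higher and 11 lower in WT, and 5 higher and 13 lower in KO. Relative to that shift the members' median was -0.64 and -1.14.

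**Figure D2:**
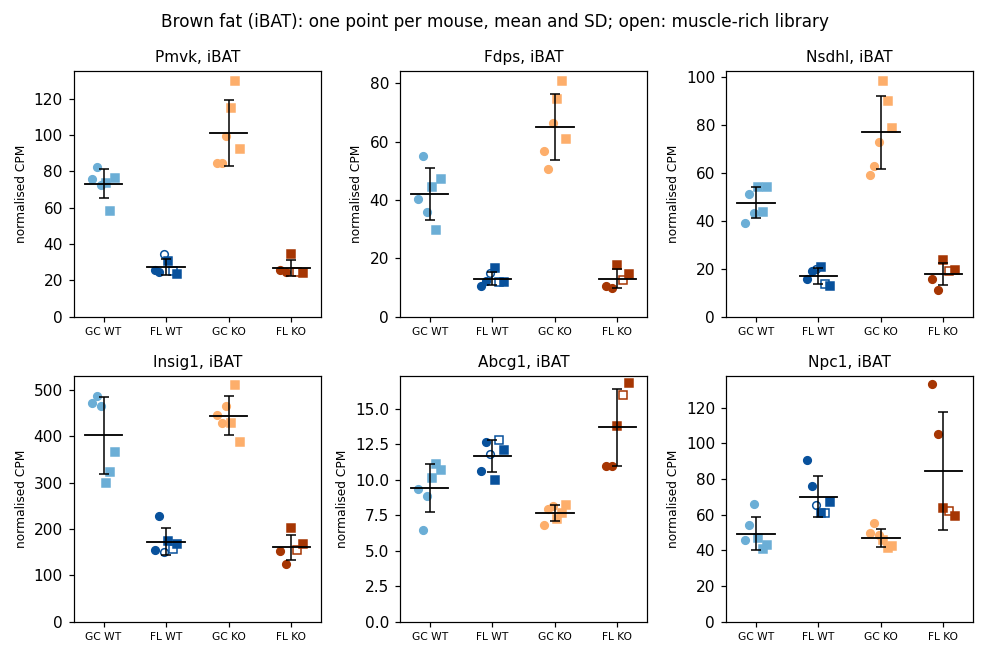
Normalised CPM (linear axis from 0) of 6 members in iBAT, 1 point per mouse (circles mice 1 to 6, squares mice 7 to 12, open points the 3 muscle-rich mice), with mean and SD by group. Pmvk, Fdps, Nsdhl and Insig1 lie lower in flight than on the ground in both genotypes without overlap, and Abcg1 and Npc1 of FL_KO lie above GC_KO.

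In the liver the decrease passed the test in KO mice, where 13 of the 18 synthesis genes were lower in flight with a median log2 fold change of -1.56. All 18 were below 0. In WT mice 0 of the 18 were called by edgeR, with a median of -0.54 and 17 below 0, and DESeq2 called 1 (Dhcr7). At an unadjusted p under 0.05, 13 members were different in WT and 25 in KO, of 30 tested. Over all genes 2248 were in WT and 2072 in KO. The 16 lower members of KO mice were Insig1, Acat2, Mvk, Pmvk, Mvd, Idi1, Fdps, Lss, Cyp51, Msmo1, Nsdhl, Hsd17b7, Sc5d, Dhcr7, Stard4 and Abca1.

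Dhcr7 (chr7:143823145-143848410, plus strand, GRCm38) ran from 59.5 to 197 CPM in GC_KO (median 92.6) and was 17.2, 19.0, 27.3, 29.9 and 52.1 CPM in the FL_KO mice, so that the groups did not overlap. In WT it ran from 30.2 to 66.2 CPM on the ground (median 44.5) and from 14.6 to 34.9 CPM in flight (median 22.1), with overlap. The log2 fold change was -1.88 in KO (SE 0.325, edgeR adjusted p = 0.00159) and -0.97 in WT (SE 0.301, adjusted p = 0.0732). Nsdhl fell by 2.13 (SE 0.372, adjusted p = 0.00174) and Stard4 by 0.98 (SE 0.174, adjusted p = 0.00202) in KO mice.

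The GC_KO mice were widely spread, and mice 9, 11 and 12 lay above mice 1, 2 and 4. The mean log2(CPM + 1) of the synthesis genes was 6.34 to 7.22 in the former and 5.05 to 5.76 in the latter, against 4.73 to 5.73 in GC_WT and 4.50 to 5.46 in FL_KO. Within mice 1 to 6 and within mice 7 to 12, sets made from the mouse numbers after the values had been seen, 15 of the 16 called members had the same sign in both sets, and the exception was Mvd, at 0.12 and -2.45. Dhcr7 differed by -1.85 and -2.02. These members had been called on the same mice, so equal signs were likely beforehand and are a description only. The count of lower members ran from 11 (without FL01 or FL02) to 19 when single mice were left out, and 12 remained without GC11. With only the KO mice in the fit it was 7. With the mouse number as a block, 17 members were called, of which 16 lower, with Mvd lost and Hmgcs1 and Soat2 gained. FL and GC mice of 1 number are separate animals, so the block is not a paired test.

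**Figure D3:**
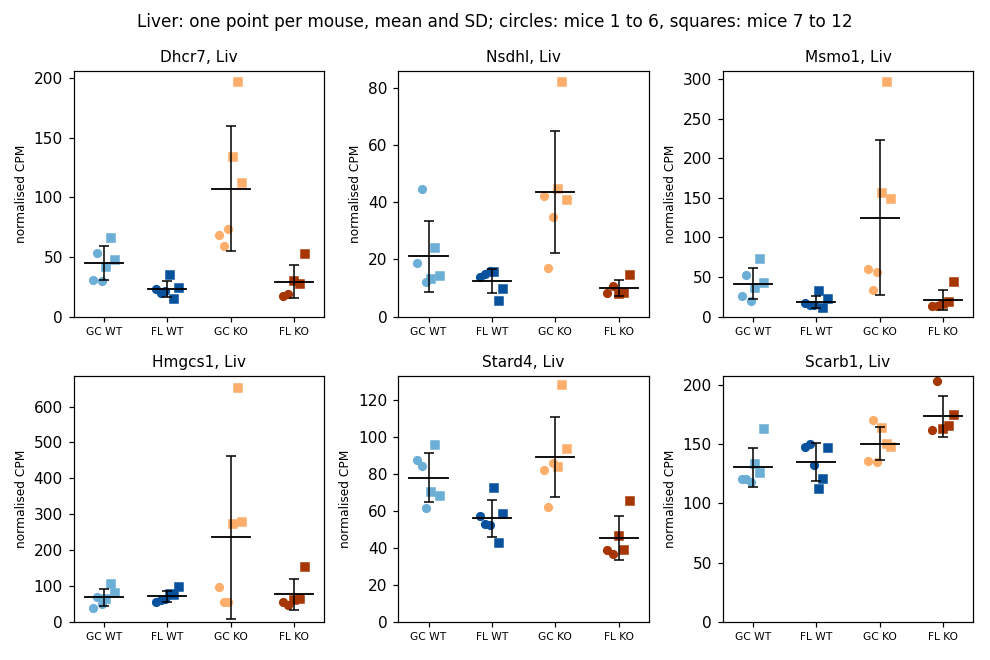
Normalised CPM (linear axis from 0) of 6 members in the liver, 1 point per mouse (circles mice 1 to 6, squares mice 7 to 12), with mean and SD by group. GC_KO mice 7 to 12 stand highest for Dhcr7, Msmo1 and Hmgcs1, FL_KO mice of Dhcr7 and Nsdhl lie below every GC_KO mouse, and FL_KO mice of Scarb1 lie above every FL_WT mouse.

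Abca1 was the member called in livers of both genotypes by edgeR, and limma called it in neither (WT adjusted p = 0.103). It ran from 201 to 244 CPM in GC_WT (median 230) and from 160 to 189 CPM in FL_WT (median 174), so every FL_WT mouse was below every GC_WT mouse. It fell by 0.36 in WT (SE 0.0761, edgeR adjusted p = 0.0114) and by 0.34 in KO (SE 0.0801, adjusted p = 0.0198), where the groups overlapped. The KO call was also lost with only the KO mice in the fit and without FL01, FL02 or GC04, and on TPM the WT groups overlapped. The bile transporters were not called: Abcg5 had log2 fold changes of 0.01 in WT and 0.29 in KO, and Abcg8 of 0.19 and 0.45, with SE of 0.284 to 0.324. Soat2 had 0.34 in WT (adjusted p = 0.196) and 0.36 in KO (adjusted p = 0.213, edgeR). Macrophage markers fell beside these values, 2 of 5 in WT and 1 of 5 in KO, and their part was not tested. Under limma on unscaled TPM the KO calls were 2 higher and 13 lower.

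In the thymus the changes were smaller and covered regulators, synthesis and efflux in both genotypes. Synthesis genes were lower for 10 of 18 in WT and 13 of 18 in KO, with median log2 fold changes of -0.36 and -0.37, and over all members -0.27 and -0.32 against 0.02 and -0.01 over all genes. The 13 members lower in both genotypes were Srebf2, Insig1, Acat2, Hmgcs1, Pmvk, Idi1, Fdps, Fdft1, Sqle, Cyp51, Msmo1, Ebp and Soat1, and Scarb1 and Abca1 were higher in both. As in iBAT, this overlap has no share over all genes beside it and is a description.

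Insig1 (chr5:28071363-28078662, plus strand, GRCm38) ran from 34.7 to 46.2 CPM in GC_WT (median 41.1) and from 20.3 to 26.8 CPM in FL_WT (median 24.1), and from 30.6 to 49.3 CPM in GC_KO against 18.8, 19.0, 21.9, 22.4 and 24.7 CPM in FL_KO. No flight mouse overlapped with the ground mice. It fell by 0.79 in WT (SE 0.0981, edgeR adjusted p = 9.46e-06) and by 0.93 in KO (SE 0.106, adjusted p = 9.87e-07). Srebf2 fell by 0.33 (SE 0.0612, adjusted p = 0.000424) and 0.44 (SE 0.0648, adjusted p = 1.32e-05), with 143 to 177 CPM in GC_WT and 108 to 138 CPM in FL_WT.

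Abca1 (chr4:53030787-53159895, minus strand, GRCm38) moved the other way. Its lowest, median and highest CPM were 143, 166 and 187 in GC_WT and 213, 260 and 364 in FL_WT, and 171, 182 and 192 in GC_KO, while the FL_KO mice stood at 263, 273, 291, 295 and 313 CPM. All flight mice lay above all ground mice. The log2 fold change was 0.72 in WT (SE 0.0911, edgeR adjusted p = 1.23e-05) and 0.66 in KO (SE 0.0950, adjusted p = 1.07e-05). Scarb1 was higher by 0.21 and 0.20 with overlapping groups, and it lost both calls without the filter and the KO call with FL04 included, with the mouse number as a block and without GC04, FL09 or FL12. Soat1 was lower by 0.25 and 0.36, and Abcg1 was not called (0.16 and 0.10).

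The scaling mattered in this tissue. On unscaled TPM with limma all genes shifted by a median of 0.18 in WT and 0.16 in KO, and 6 members were called higher and 1 lower in WT, and 5 higher and 2 lower in KO, in place of 2 higher and 13 lower and 2 higher and 16 lower. Ebp changed its direction in both genotypes, and relative to the shift the members' median was -0.26 and -0.24. Cell markers moved beside the result: 5 of 5 cycling-cell markers were lower in both genotypes (435 to 580 TPM in sum in GC_WT, 314 to 500 TPM in FL_WT, 381 to 569 TPM in GC_KO and 337 to 389 TPM in FL_KO). Of the thymocyte markers 2 of 3 were lower in both, and macrophage markers were higher for 2 of 5 in WT and 5 of 5 in KO, and B cell markers for 1 of 3 and 3 of 3. Their part in the result was not tested.

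In white fat the main change was in an efflux gene. Abcg1 (chr17:31057675-31117988, plus strand, GRCm38) ran from 31.5 to 47.2 CPM in GC_WT (median 39.3) and from 97.9 to 133 CPM in FL_WT (median 117). In KO mice it ran from 30.4 to 48.5 CPM on the ground and was 85.7, 95.6, 95.7, 108 and 135 CPM in flight. All flight mice lay far above all ground mice in both genotypes. The log2 fold change was 1.55 in WT (SE 0.130, edgeR adjusted p = 2.64e-07) and 1.48 in KO (SE 0.134, adjusted p = 1.2e-06). Of the macrophage markers 1 of 5 was higher in WT and 0 of 5 in KO, with sums of 575 to 800 TPM in GC_WT, 612 to 1485 TPM in FL_WT, 445 to 975 TPM in GC_KO and 557 to 798 TPM in FL_KO, and their part in the result was not tested.

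The synthesis genes of eWAT changed less. In WT mice Hmgcs1 was higher by 0.50 (SE 0.157, adjusted p = 0.0368), with 144 to 205 CPM on the ground and 144 to 298 CPM in flight, and Acat2 lower by 0.61 (SE 0.138, adjusted p = 0.00513) and Tm7sf2 lower by 0.18 (edgeR). Scarb1, the other lower member, fell by 0.38 (SE 0.108, adjusted p = 0.0225). In KO mice Cyp51 fell by 0.73 (SE 0.137, adjusted p = 0.00290) and Nsdhl by 0.70 (SE 0.143, adjusted p = 0.00473), and Idi1, Msmo1 and Tm7sf2 were also called lower. Called in both genotypes were Abcg1 and Tm7sf2, and Tm7sf2 lost its WT call without FL_KO mice 1, 2, 11 or 12, which share the fit, and under DESeq2, limma, RLE factors, no filter, FL04 included, only the WT mice in the fit and the mouse number as a block. Its KO call was lost without FL02, FL09 or FL11, under limma, without the filter, with only the KO mice in the fit and with the mouse number as a block. Scarb1 lost its WT call under limma. Under limma on unscaled TPM the WT calls were 3 higher and 1 lower. Insig1 had -0.98 in WT (adjusted p = 0.0711) and -0.76 in KO (adjusted p = 0.222).

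**Figure D4:**
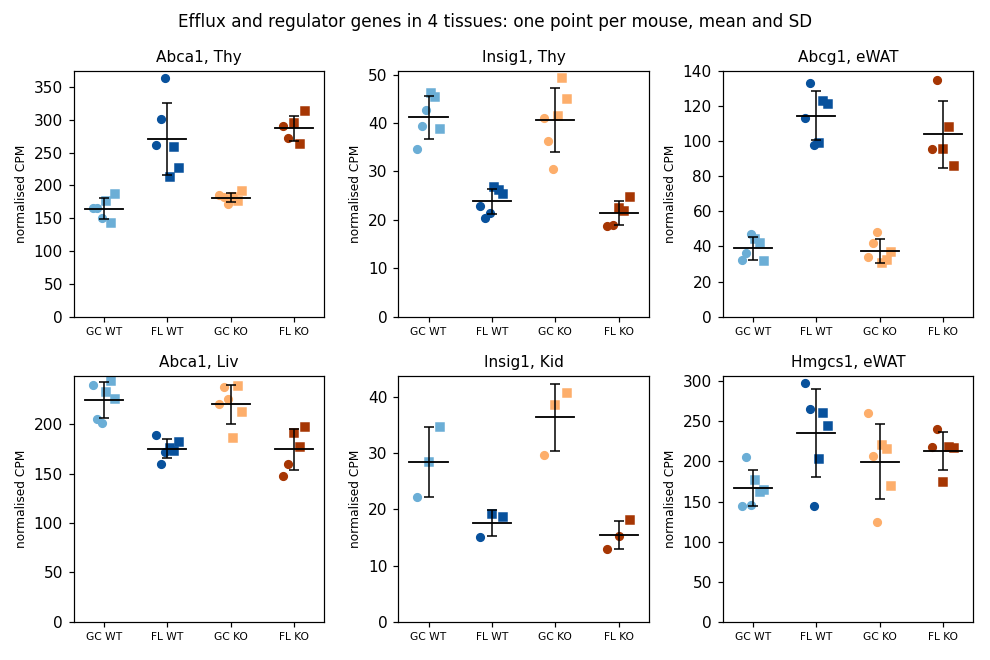
Normalised CPM (linear axis from 0) of Abca1, Insig1, Abcg1 and Hmgcs1 in Thy, Liv, eWAT and Kid, 1 point per mouse (circles mice 1 to 6, squares mice 7 to 12), with mean and SD by group. Abca1 in Thy and Abcg1 in eWAT are higher in flight without overlap, Abca1 in Liv is lower, and Insig1 is lower in Thy and Kid.

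In the kidney 2 members were called in KO mice. Insig1 was 29.6, 38.6 and 40.7 CPM in GC_KO and 13.0, 15.2 and 18 CPM in FL_KO, and fell by 1.24 (SE 0.176, edgeR adjusted p = 0.0202). Cyp51 was 164, 168 and 179 CPM in GC_KO and 100, 109 and 127 CPM in FL_KO, and fell by 0.60 (SE 0.0923, adjusted p = 0.0310). Neither overlapped between groups, and the count of 2 went to 0 without FL01, FL02, GC11 or GC12, under limma and with only the KO mice in the fit. It was 1 without GC02, GC06 or GC10, and 5 with DESeq2, without the filter or without FL11. At an unadjusted p under 0.05 edgeR gave 13 of 27 members in KO kidneys, and 23 of the 27 were below 0. Over all genes 1941 passed that threshold. GC_KO held 1 of mice 1 to 6 and 2 of mice 7 to 12, and FL_KO 2 and 1. Within these sets Insig1 differed by -1.05 and -1.11 and Cyp51 by -0.77 and -0.38. In WT kidneys Insig1 was 22.1, 28.4 and 34.6 CPM on the ground and 15.0, 18.6 and 19.1 CPM in flight, a log2 fold change of -0.69 (adjusted p = 0.279).

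In TpB, MdB, Spl and Cbr edgeR called 0 members in either genotype, and 0 in WT kidneys. At an unadjusted p under 0.05 the WT counts were 2 in TpB, 7 in MdB, 2 in Spl, 4 in Kid and 0 in Cbr. The KO counts were 1 in TpB, 3 in MdB, 3 in Spl and 6 in Cbr. Each count is of 27 to 29 members tested. Over all genes the WT counts at that threshold were 675, 1420, 2741, 1003 and 548 in the same order of tissues. The KO counts over all genes were 486, 570, 2098 and 905. DESeq2 called 1 member in WT MdB (Msmo1), 2 in WT Kid (Insig1, Mvd) and 1 in KO TpB (Insig1), and limma 1 in KO Spl (Srebf2). By adjusted p, 0% of all genes were called in TpB and MdB, and 2.26% in WT and 0.668% in KO Spl. It was 0.119% in WT Kid, and 0.0244% and 0.00610% in Cbr. Npc1l1, tested only in TpB and Cbr, had 0.19 in WT and 0.60 in KO cerebrum with adjusted p of 1 and 0.769.

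**Figure D5:**
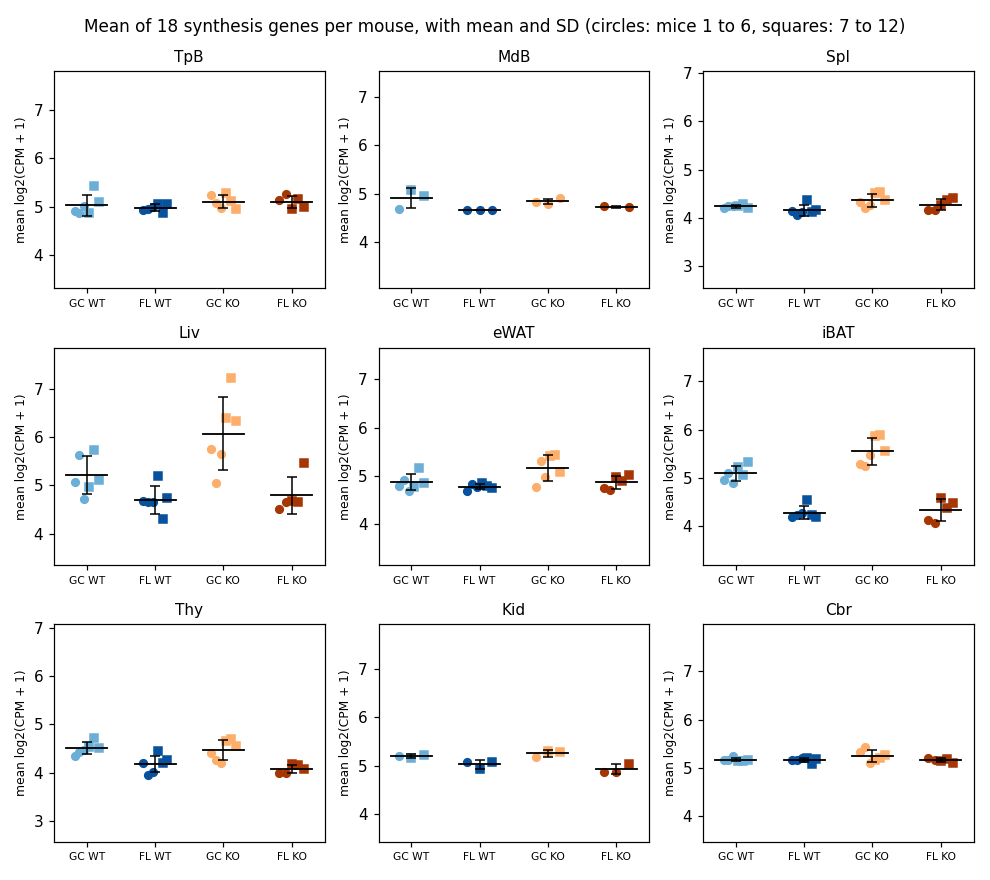
Mean log2(normalised CPM + 1) of the 18 synthesis genes in each mouse, by tissue and group (circles mice 1 to 6, squares mice 7 to 12), with mean and SD, on axes of equal length per panel that do not start at 0. FL mice lie below GC mice of their genotype without overlap in iBAT, Kid and MdB, and in Thy of KO mice. Groups of Kid and MdB hold 2 or 3 mice. The GC_KO livers range from 5.05 to 7.22, and the groups of Cbr, Spl and TpB overlap.

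Between the genotypes on the ground, edgeR called 11 pairs higher in GC_KO than in GC_WT and 0 lower, in Liv and iBAT. In Liv 4 of 30 members were called (2.64% of all genes), each higher (0.938%): Dhcr7 rose by 1.26 (SE 0.298, edgeR adjusted p = 0.0187), Pmvk by 1.25 (SE 0.299, adjusted p = 0.0207), Hmgcs1 by 1.79 (SE 0.467, adjusted p = 0.0379) and Hsd17b7 by 0.77. Dhcr7 ran from 30.2 to 66.2 CPM in GC_WT (median 44.5) and from 59.5 to 197 CPM in GC_KO (median 92.6), with a small overlap. Hmgcs1 was 56.5, 56.6 and 97.3 CPM in GC_KO mice 2, 4 and 1 and 272, 277 and 653 CPM in mice 9, 12 and 11, against 38.7 to 106 CPM in GC_WT. The lower KO mice lay within the WT range. Within mice 1 to 6 the difference of Hmgcs1 was 0.39 and within mice 7 to 12 it was 2.16.

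In iBAT 7 of 27 members were called (2.14% of all genes), each higher in GC_KO (1.02%): Lss by 0.69 (SE 0.15, edgeR adjusted p = 0.0138), Mvd by 1.07 (SE 0.243, adjusted p = 0.0202), Nsdhl by 0.70 (SE 0.160, adjusted p = 0.0214), Fdps, Dhcr7, Pmvk and Cyp51. Lss ran from 23.4 to 36.2 CPM in GC_WT (median 27.6) and from 33.6 to 63.9 CPM in GC_KO (median 41.2), with overlap. As in Liv, GC_KO mice 9, 11 and 12 lay above mice 1, 2 and 4 in iBAT, with a mean log2(CPM + 1) of the synthesis genes of 5.56 to 5.90 against 5.24 to 5.48, and Dhcr7 at 38.3 to 50.5 against 16.9 to 21.3 CPM. The synthesis level of GC_KO did so too in Thy (4.55 to 4.70 against 4.20 to 4.41) and Spl (4.37 to 4.53 against 4.21 to 4.32). In eWAT, Cbr and TpB these GC_KO sets overlapped. Mice 7 to 12 also lay above mice 1 to 6 in FL_KO of iBAT, eWAT, Spl and Thy and in GC_WT of Thy. In FL_KO of Liv, Cbr and TpB the sets overlapped. The genotype calls in Liv and iBAT rested on single mice. In Liv 0 of the 4 remained without GC11, GC03 or GC06, and 13 members were called higher without GC02. In iBAT 0 of the 7 remained without GC11 and 1 without GC09, GC03 or GC06. Limma called 0 of the 4 in Liv and 1 of the 7 in iBAT, and with only the ground mice in the fit 1 and 4 remained. In the remaining tissues edgeR called 0 members, with 13 in eWAT, 10 in Spl, 8 in Cbr, 3 each in MdB and Thy, 1 in Kid and 0 in TpB at an unadjusted p under 0.05. At that unadjusted threshold the counts over all genes in these tissues ran from 528 in TpB to 3073 in Thy. They were 2367 in eWAT, 1748 in Spl, 1645 in Kid and 1519 in Cbr. By adjusted p, edgeR called 2.74% of all genes in eWAT, 1.13% in Spl, 0.836% in Cbr and 0.244% in MdB. The share was 3.81% in Thy, 1.61% in Kid and 0.198% in TpB. There DESeq2 called 5 members in eWAT, limma 4 in eWAT and 1 in Kid, and edgeR with the mouse set as a term 6 in eWAT (Hsd17b7, Lss, Msmo1, Npc1, Sc5d and Sqle).

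In flight the genotypes differed in 2 pairs, and 0 members were called in the tissues not named here, where at most 5 passed an unadjusted p under 0.05 and DESeq2 called 1 (in iBAT), and 2 in Kid. At that unadjusted threshold the counts over all genes in those tissues ran from 418 in TpB to 3233 in Thy. By adjusted p, edgeR called 0.203% of all genes in TpB, 0.208% in MdB, 1.16% in Spl and 1.06% in eWAT. The share was 1.5% in iBAT, 2.64% in Thy and 0.531% in Cbr. Scarb1 in Liv ran from 112 to 150 CPM in FL_WT (median 140) and was 162, 163, 165, 175 and 203 CPM in FL_KO, above every FL_WT mouse, a log2 fold change of 0.36 (SE 0.0942, edgeR adjusted p = 0.0306) where 3.65% of all genes were called, 1.36% higher. Stard4 in Kid was 45.7, 49.7 and 53.9 CPM in FL_WT and 32.6, 36.4 and 37.6 CPM in FL_KO, and fell by 0.49 (SE 0.0870, adjusted p = 0.0101) where 1.83% were called, 1.32% lower. Scarb1 lost its call without FL02, FL06, FL07, FL08 or FL12, and Stard4 without FL02 or FL10.

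Whether flight acted differently in the genotypes was tested as a difference of the flight responses. No member, and no gene of any tissue (0%), was called by edgeR or, for members, by DESeq2 or limma. At an unadjusted p under 0.05 edgeR gave 12 members in Liv, 7 in iBAT, 5 in Kid, 3 in MdB and 2 in eWAT. It gave 1 each in Spl and Cbr and 0 in TpB and Thy. Over all genes that threshold gave 542 in Liv, 1127 in iBAT, 511 in Kid, 827 in MdB and 1291 in eWAT. It gave 643 in Spl, 383 in Cbr, 321 in TpB and 1342 in Thy. In Liv the KO response of Hsd17b7 was lower than the WT response by a log2 difference of -0.86 (SE 0.292, adjusted p = 1) and that of Nsdhl by -1.37 (SE 0.495, adjusted p = 1). In iBAT the differences with the smallest p were -0.46 for Acat2 (SE 0.15, adjusted p = 0.341) and 0.53 for Abcg1 (SE 0.176, adjusted p = 0.341). The larger number of KO calls in Liv is therefore not shown to be a difference between genotypes. The flight comparisons of both genotypes have separate control mice and share the fitted spread.

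Of 18 other sterol genes, listed with earlier results known, 0 to 7 passed the test per tissue and genotype by flight. Per tissue 15 to 18 were tested. In Thy 1 was higher and 1 lower in WT (22.8% of all genes called) and 1 and 6 in KO (38.2%), of 16 tested. In iBAT it was 1 and 2 in WT (19.2%) and 2 and 5 in KO (33.5%), of 15. In eWAT it was 2 and 2 (13.4%) and 1 and 2 (7.71%), of 17. In Liv it was 1 and 1 (3.45%) and 1 and 2 (3.34%), of 17. Aacs, which makes acetoacetyl-CoA for lipid synthesis, was lower in iBAT (-1.74 in WT, SE 0.161, and -2.21 in KO, SE 0.175), in eWAT (-1.28, SE 0.195, and -1.11, SE 0.206) and in KO liver (-1.37, SE 0.384). Srebf1, the SREBP of fatty acid synthesis, was lower in eWAT of both genotypes (-0.72, SE 0.176, and -0.88, SE 0.187) and in iBAT (-1.44, SE 0.338) and Thy (-0.37, SE 0.0921) of KO mice. Lipa, the lysosomal cholesteryl ester hydrolase, was lower in Thy of both genotypes (-0.23, SE 0.0660, and -0.43, SE 0.0702) and higher in WT eWAT (0.29, SE 0.0665). Stard3 fell by 0.24 in KO Thy, Lpcat3 higher by 0.36 in KO eWAT and Scap, the escort of the SREBPs, higher by 0.34 in KO iBAT. In WT livers Cyp46a1 was higher by 1.04 and Cyp7b1 had a log2 fold change of -1.06, Mylip was higher by 0.22 in WT Thy, and in WT iBAT Cyp27a1 was higher by 0.40 and Npc2 had -0.19. In KO livers Nr1h2, which encodes LXRβ, was higher by 0.26 and Cyp27a1, which makes oxysterols, had -0.32, whereas in KO Thy Nr1h2 had -0.17 and Cyp27a1 was higher by 0.60. The remaining flight calls in KO mice were Lpcat3 (-0.16) and Mbtps1 (-0.17) in Thy, Lipa (-0.38), Mylip (-0.29), Npc2 (-0.25) and Ggps1 (0.27) in iBAT, and in WT mice Nr1h2 (0.20) in eWAT. Between genotypes, Cyp7b1, an oxysterol hydroxylase, was lower in KO kidneys on the ground (-0.96, SE 0.112) and in flight (-1.28, SE 0.114), Aacs was higher in GC_KO livers (1.42, SE 0.362), and Lipa was lower in KO mice in Spl on the ground and in Thy, eWAT and iBAT in flight. The median of the list lay between -0.07 and 0.07 in every tissue and genotype, whereas that of the 31 members reached -1.09.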

How the data were processed

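RNA-seq of 9 tissues was analysed from 1 table of the series with 54752 genes. Per the methods and the submitters' processing notes, the authors made libraries from poly(A) RNA, or from RNA depleted of ribosomal RNA in thymus, mapped single reads to mm10 with STAR 2.6.1 and quantified genes with RSEM 1.3.1. The expected counts deposited by the authors are RSEM's estimates, which divide multi-mapping reads between genes and are not normalised. RSEM's TPM values, also deposited by the authors, were used without change. A further 192 columns of FPKM were not used. The strand setting of the counting is not given in the sources used here. Hmgcs1, Idi1, Fdft1, Lss, Cyp51, Npc1, Abcg5 and Abcg8 overlap exons of a gene on the opposite strand, and Nr1h3, Fdps and Tm7sf2 of one on the same strand (GENCODE vM21), so their reads may be shared.

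Members were found by symbol. Expected counts were rounded and tested per tissue with edgeR 4.0.16 in R 4.3.3 (filterByExpr, TMM, quasi-likelihood test, all 4 groups in 1 fit), with Benjamini-Hochberg adjustment over all genes tested and a threshold of 0.05. Members not tested for low counts were Npc1l1 (7 tissues), Abcg5 and Abcg8 (7 tissues) and Soat2 (5 tissues). Values of single mice are CPM scaled by TMM, on which the tests rest, in place of TPM, and levels across tissues are TPM. The SE of a log2 fold change is its size over the root of the F statistic. The fit was tested on simulated counts with known changes.

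As alternatives, the fit was repeated with RLE factors, with no filter, with FL04 included, with the mice of the contrast alone, with mouse numbers blocked and, in TpB, with the library set. DESeq2 1.42.0 and limma 3.58.1 were also run, the latter on log2(TPM + 1) where a group's mean reached 5 TPM, and each mouse of groups of up to 5 was left out in turn. Added after the data were seen were the mouse set (mice 1 to 6 against 7 to 12) as a term, iBAT without the muscle-rich mice, Thy without GC04 and each mouse of the groups of 6 left out in Liv and iBAT. Mouse numbers were blocked as a setting only, because the same number in FL and GC stands for separate animals. Deviations from the group means correlated in 5 of 5 KO liver pairs of 1 number (r = 0.22 to 0.37). The part of the mouse set in these correlations was not tested.

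Samples were grouped by the labels. The members, the lists and the tests were chosen with earlier results of these data known. Named with full statistics were up to 3 called members per tissue and comparison with the smallest adjusted p, and others were named after their values had been seen. Coordinates and promoters are on GRCm38.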

Additional observations from a re-analysis of the deposited data

Results flagged for a closer look

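Single mice stood apart from their group by Dixon's 95% limit in 7 of 84 groups tested, where chance gives about 1 in 20. Hmgcs1 in Liv was 653 CPM in GC11 against 277 CPM in the next GC_KO mouse, and 154 CPM in FL12 against 64.9 CPM in the next FL_KO mouse. Pmvk in Liv was 23.3 CPM in FL12 against 13.7 CPM in the next FL_KO mouse. Nsdhl in Liv was 44.7 CPM in GC05 against 23.9 CPM in the next GC_WT mouse, and Scarb1 was 163 CPM in GC10 against 133 CPM. In iBAT, Insig1 was 229 CPM in FL05 against 175 CPM in the next FL_WT mouse, and Pmvk 34.3 CPM in FL09 against 25.5 CPM in the next FL_KO mouse.

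Abca1, the exporter of cholesterol to lipid-poor apolipoprotein, differed in direction between tissues of WT mice. The log2 fold change of flight was 0.72 in Thy and -0.36 in Liv, and the CPM of flight and ground mice did not overlap in either tissue. On TPM the liver groups overlapped, and limma did not call Abca1 in Liv. The difference between the tissues was not tested.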

How the results depend on the processing

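Over all tissues, 5 pairs of member and tissue were higher and 33 lower by flight in WT, 5 higher and 56 lower in KO, 11 higher by genotype on the ground, and 1 higher and 1 lower by genotype in flight. Limma on log2(TPM + 1) gave 15 higher and 13 lower in WT and 13 higher and 33 lower in KO, and 4 of 109 called pairs then pointed the other way (Ebp in WT iBAT and in Thy of both genotypes, Tm7sf2 in KO iBAT). That setting keeps the shift of all genes and tests fewer genes. Without the filter the WT higher count was 3, and with the mouse set as a term 8. On the ground, the higher count was 25 with DESeq2 or the mouse set as a term, 7 without the filter, 6 with limma and 5 with only the groups of the contrast, and the lower count was 1 with limma and 2 with the mouse set. In flight the genotype count was 3 lower with DESeq2, 2 lower without the filter, with FL04 included or with the mouse set, and 0 lower with limma or only the groups of the contrast, and 0 higher without the filter or with only those groups. The cause was not tested. A difference of the flight responses was called for 0 members under each of these settings.

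Leaving out single mice gave 4 to 5 higher and 31 to 34 lower pairs in WT, 4 to 5 higher and 44 to 59 lower in KO, 4 to 20 higher and 0 to 1 lower on the ground, and 0 to 1 higher and 0 to 2 lower in flight. For differences of the flight responses it gave 0. In Thy, eWAT, Spl, TpB and Cbr only FL_KO mice were left out in turn, besides GC04 in Thy. Dependence of the calls on single WT mice was therefore not tested in those tissues. With the mouse number as a replicate block, 6 were higher and 37 lower in WT and 6 higher and 60 lower in KO. FL and GC mice of a block share only a number, and no pairing was assumed. Apart from limma, each of 112 called pairs kept its direction under every setting where it had a value. FL04 included, RLE factors and DESeq2 left all 32 named results called. No filter left 31 of them called, only the groups of the contrast 25, and limma 20.

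Depth limits members at a few CPM, such as Mvd in iBAT at 2.02 to 24.3 CPM. Groups of 2 or 3 mice in MdB and of 3 in Kid leave single mice to decide calls. Flight cannot be told apart from site and date, nor from the return to Earth or any difference of food. The p-values measure the spread between mice only.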

Other observations

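Flight mouse FL04, left out of the comparisons, was read for 12 of the members' tissue values. Its TPM lay within the range of the other FL_KO mice for Abca1 in Thy (29.6 TPM), Abcg1 (47.6 TPM), Cyp51 and Nsdhl in eWAT, Dhcr7 in Liv, Nsdhl in iBAT and Srebf2 in Thy. It was below their lowest mouse for Stard4 in Liv (5.26 against 11.4 TPM), Nsdhl in Liv (3.63 against 6.10 TPM), Fdps in iBAT (10.5 against 11.4 TPM) and Pmvk in iBAT (31 against 31.2 TPM). It was above their highest mouse for Insig1 in Thy (11.1 against 9.31 TPM).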
